A study of Mus musculus with 4 samples.

Results

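The cells described here are the cycling microglia of mice treated with ATV:4D9, compared between AppSAA and WT mice. They are the cells that the authors' coarser clustering (resolution 0.2) placed in cluster 4 in the 8 mice that received this antibody, 10108 cells of the 32400 in these mice and of 74758 in the whole series. There were 4 mice per genotype (AppSAA;TfRmu/hu, homozygous for AppSAA, and WT;TfRmu/hu as the control). Each of 4 pools held 1 mouse of each genotype. All 8 mice were on a C57BL/6J background, were homozygous for TfRmu/hu (a knock-in of a human sequence into the mouse transferrin receptor), were recorded as male and received a single IV dose of 10 mg/kg ATV:4D9, with brains taken 24 h later. The study's table of ages was not used here, and its reporting summary lists AppSAA males of 8 months but WT mice over a range of 2 to 8 months, and the age of these 4 WT mice is not given in the sources used here. AppSAA mice carry mutations of familial Alzheimer's disease in the mouse App gene itself, so no transgene promoter is involved. The genotypes were sampled only at 24 h. CD11b+ cells were sorted after enzymatic dissociation at 37 °C, so only sorted cells could be counted.

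Microglia are the resident macrophages of the brain. In an undisturbed brain few of them divide, and they carry a set of homeostatic genes such as P2ry12 and Tmem119. TREM2 is a lipid-sensing receptor that signals through the adaptor Tyrobp and the kinase Syk, and microglia around amyloid plaques depend on it to take up the disease-associated (DAM) profile. The antibody 4D9 binds and activates TREM2, and the ATV form also binds the human part of the transferrin receptor, which carries it into the brain. Type I interferons act through STAT proteins and IRF9 on promoters with an interferon-stimulated response element (ISRE), and genes of late cell cycle phases are often governed through a CHR element in their promoters.

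The name of the cells was checked against markers. Summed over 10 cycling markers, among them Mki67, Top2a and Cdk1, the 8 mice held between 1957 and 2340 CPM (UMI counts scaled to a common total per sum) in cluster 4, compared with 348 to 583 in their cells outside the cluster. The 6 microglial markers summed to between 20953 and 24103 CPM in cluster 4 and to between 22111 and 26454 outside. The authors' finer clustering (resolution 0.4) divided most of these cells into finer clusters 4 and 7. Genes of DNA replication and S phase were at similar sums in the finer cluster 4 (6009 to 6313) and the finer cluster 7 (5330 to 6930), whereas 50 genes of G2 and mitosis reached 7263 to 8435 in the finer cluster 7 and 2075 to 2517 in the finer cluster 4. Because the clusters were drawn from the expression of the same cells, these sums describe the annotation and test nothing.

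Cycling microglia made up a smaller share of the sorted cells in AppSAA mice. In pools 1 to 4 the share was 24.9%, 20.7%, 18.4% and 25.3% in AppSAA mice and 41.3%, 36.3%, 45.7% and 36.6% in WT mice. Every AppSAA mouse was below every WT mouse. The means were 22.4% ± 3.33 and 40.0% ± 4.44 (SD, n = 4 each), a difference of -17.6 percentage points (exact permutation test, two-sided, p = 0.0286, the smallest p that 4 against 4 mice allow, adjusted p = 0.0429 over 3 comparisons). Within pools, with an exact two-sided sign-flip test, p was 0.125, the smallest that 4 pairs allow. Without the antibody in its ATV form, cycling cells were rare, with 26 to 54 cells per AppSAA mouse given 4D9, 27 to 74 per AppSAA mouse given ATV:ISO and 6 to 13 per WT mouse given ATV:ISO.

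Within the cycling cells, the share of the mitotic finer cluster 7 was larger in AppSAA mice. Finer cluster 7 held 28.9%, 33.6%, 36.6% and 31.9% of the cycling cells of AppSAA mice in pools 1 to 4, and 25.1%, 20.5%, 21.1% and 23.5% of those of WT mice. Again the groups did not overlap. These are shares of cycling cells only. Of all sorted cells, finer cluster 7 cells were a smaller part in the AppSAA mouse of every pool. They numbered 326, 267, 163 and 459 among 4536, 3833, 2413 and 5676 cells in AppSAA mice of pools 1 to 4. In WT mice they numbered 468, 315, 287 and 363 among 4512, 4232, 2971 and 4227 cells. The mean shares within cycling cells differed by 10.2 percentage points (32.8% ± 3.24 against 22.6% ± 2.13, exact permutation p = 0.0286, adjusted p = 0.0429). Within pools, the exact two-sided sign-flip test gave p = 0.125, the smallest that 4 pairs allow. Cells of AppSAA mice also held more UMIs, with medians of 20377, 18025, 19846 and 20334.5 per cell compared with 16515.5, 15323, 17206 and 19618.5. This difference of 2480 was in the same direction in 4 of 4 pools, but the groups overlapped (exact permutation p = 0.0571, adjusted p = 0.0571). Mitochondrial UMIs took 1.56% and 1.55% of a cell's total at the median. Gene results without cells over 25000 UMIs, and list totals thinned to equal depth, are given below where they bear on a result.

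**Figure D1:**
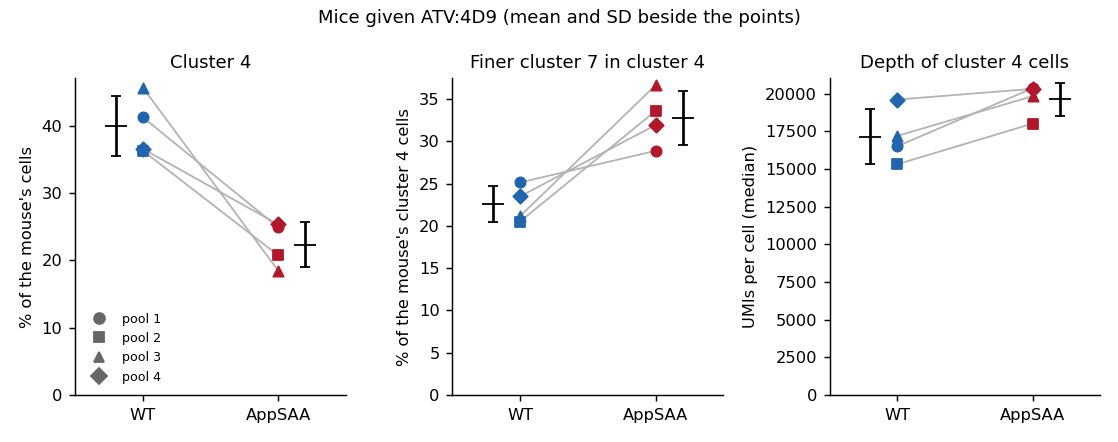
Share of cluster 4 among each mouse's cells (percent, left), share of finer cluster 7 among its cluster 4 cells (percent, middle) and median UMIs per cluster 4 cell (right) in WT (blue) and AppSAA (red) mice given ATV:4D9. Lines join the 2 mice of a pool and the bars beside the points give the mean and SD (n = 4 mice each). AppSAA mice lie at 18.4% to 25.3% of cells against 36.3% to 45.7% in WT mice, and the order is opposite in the middle panel.

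UMIs were summed over the cycling cells of each mouse (9153251 to 33092525 UMIs) and tested with edgeR's quasi-likelihood test with the pool in the model. Values for single genes below are normalised CPM (scaled by TMM), fold changes are AppSAA over WT, and a gene was called at a Benjamini-Hochberg adjusted p under 0.05. Of 12682 genes tested, 2215 were called, of which 1316 were higher (10.4%) and 899 lower (7.09%) in AppSAA mice. These shares are the background for the counts of listed genes below. Most changes were small. Among called genes, 143 were more than 2-fold higher and 10 more than 2-fold lower, and the genes tested had a median log2 fold change of -0.00779. Without the pool in the model 330 genes were called (298 higher, 2.35%, and 32 lower, 0.252%), and without cells over 25000 UMIs 1149 were, with 18 of the named genes losing their call. DESeq2 with the pool called 1140 genes, and edgeR called 1296 without pool 2 and 1405 without pool 3. Of all genes, 4.94% were higher and 3.25% lower in AppSAA mice without any overlap between the 4 and 4 mice.

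The 12 largest rises, among genes called, with the same direction in 4 of 4 pools and 10 or more CPM on average, were led by Cd69 and Cxcl13. Cd69, an early activation antigen, was at 47.1, 20.8, 29.9 and 38.8 normalised CPM in the AppSAA mice of pools 1 to 4 and at 6.42, 3, 6.2 and 3.65 in the WT mice. The groups did not overlap, with a log2 fold change of 2.86 ± 0.20 (SE, adjusted p = 0.00223), and the call was lost when cells over 25000 UMIs were left out (adjusted p = 0.108). Cxcl13, a chemokine that attracts B cells, was at 52.2, 24.5, 14.6 and 15.3 compared with 5.95, 2.19, 3.58 and 3.62 (log2 fold change 2.73, adjusted p = 0.0214). Its call was lost without pool 1, 2 or 3, with equal cells per mouse, without cells over 25000 UMIs and in the finer cluster 4 alone. Ch25h, which makes 25-hydroxycholesterol, stood at 39, 23.1, 27.6 and 25.8 against 7.5, 4.46, 7.45 and 6.8 (2.14 ± 0.085, adjusted p = 3.35e-11). It was called in every alternative run. The other largest rises were Ifi27l2a (2.59), Ifi211 (2.24), H2-Q6 (2.00), Ifi207 (1.92), Oasl2 (1.91), H2-Q7 (1.88), Ass1 (1.82), Zbp1 (1.81) and Ifitm3 (1.81), and each of these 9 lost its call when 1 or more of the pools was left out, while its sign held. Ifi27l2a and Ifi207 also lost their calls without cells over 25000 UMIs.

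**Figure D2:**
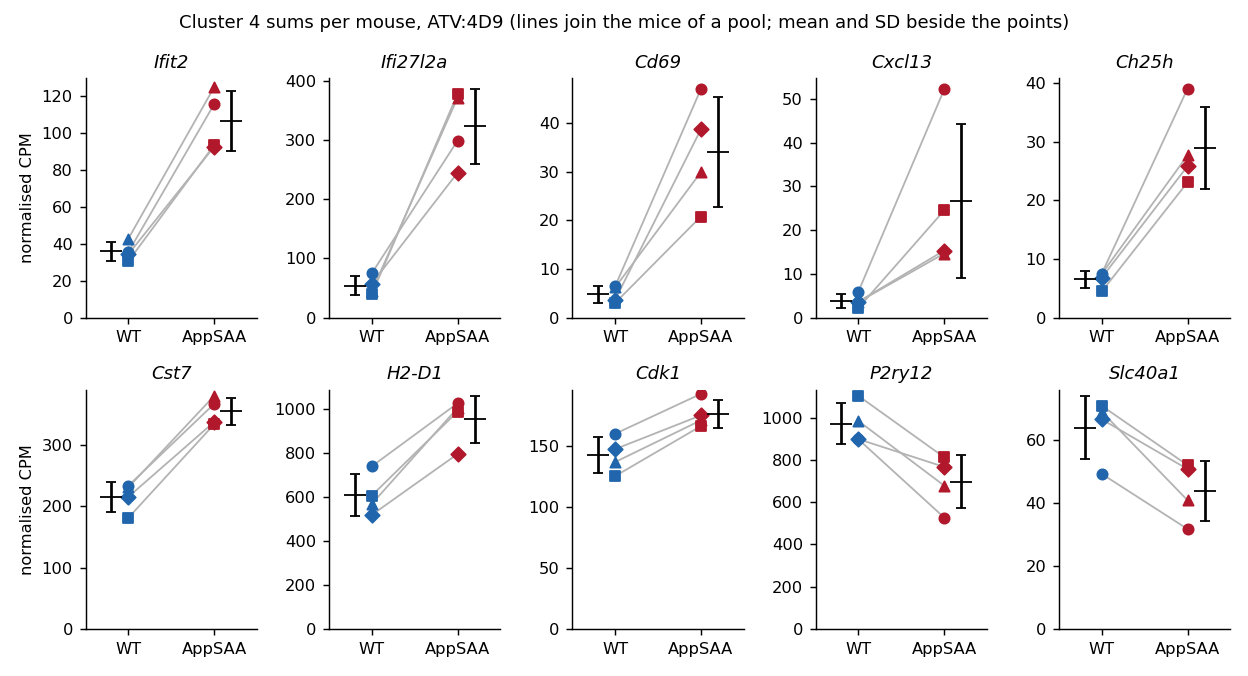
Normalised CPM of 10 genes in the cluster 4 sums of each mouse, WT in blue and AppSAA in red, with lines joining the mice of a pool and the mean and SD beside the points (n = 4 each). Cd69 reaches 20.8 to 47.1 in AppSAA mice against 3 to 6.42 in WT mice, whereas P2ry12 and Slc40a1 are lower in the AppSAA mouse of every pool.

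All 32 listed interferon response genes were tested and called higher in AppSAA mice, with a median log2 fold change of 1.57 and a range from 0.66 to 2.59. In each of the 32 the lowest AppSAA mouse was above the highest WT mouse. The transcription factors included Stat2, at 38.9, 35.4, 48.7 and 36.1 normalised CPM in AppSAA mice against 19.3, 18, 19.4 and 18.8 in WT mice (log2 fold change 1.06, adjusted p = 9.5e-11). Irf7, a factor that amplifies interferon production, was at 96, 74.3, 75 and 64.8 against 39.6, 16.3, 20.6 and 23.7 (1.66, adjusted p = 0.0225). The pool 1 mouse was the highest of its genotype for Irf7.

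Among the effectors, Ifit2, which binds viral RNA and limits its translation, was at 116, 93.6, 125 and 92.7 normalised CPM in AppSAA mice and at 35.6, 30.6, 42.9 and 34.4 in WT mice. It had the smallest adjusted p of the list (log2 fold change 1.57 ± 0.047, adjusted p = 2.4e-16). Isg15, a ubiquitin-like modifier, was at 450, 313, 353 and 256 against 146, 65.5, 101 and 88.9 (1.80, adjusted p = 0.0107). The pool 1 mouse was the highest of its group for Isg15 in both genotypes. Ifi27l2a was at 299, 379, 372 and 245 against 74.8, 39.2, 44.1 and 57.2 (2.59 ± 0.33, adjusted p = 0.0269). It lost its call when any single pool was left out, and also without cells over 25000 UMIs. Mx1 and Trim30a rose by 1.43 and 0.79 (adjusted p = 9.5e-11 and 4.24e-11), and Mx1 is annotated as a transcribed pseudogene in GRCm38.p6, the gene being defective in C57BL/6J mice. Without the pool in the model, 31 of the 32 genes were called, and with 1 pool left out 25 to 30 were. Several members, such as the Ifit and Oas genes, have close paralogs, and so do Ifi207, Ifi211, H2-Q6 and H2-Q7 among the largest rises, which are not on this list. The division of reads between paralogs is uncertain.

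Promoters of these genes were read from RefSeq (GRCm38.p6), from 250 bases before to 50 bases after the gene start. The motif searched was the ISRE core GAAANNGAAA on both strands, where overlapping matches were counted. It was found in 13 of the 23 listed interferon genes with a promoter in the table (56.5%) and in 4 of 16 MHC class I and immunoproteasome genes (25.0%). The share was 3.85% of DAM genes and none of 16 homeostatic genes, compared with 3.99% of all 27025 genes in the table. A gene was counted once if any of its promoters matched. The first 250 bases of 4 of them are printed because their genes are among the risers with a match, Isg15 and Ifit1 from the interferon list, Ifi211 from the 12 largest rises and Cybb from the phagocytosis list. All are on the strand of the gene, 5′ to 3′, and capitals mark the ISRE core, which reads as its reverse complement where the match is on the other strand. Isg15 lies on the minus strand (chr4:156200819-156201068), with matches starting 78, 72 and 66 bases before the start that overlap in 1 run. Ifit1 lies on the plus strand (chr19:34640639-34640888), Ifi211 on the minus strand (chr1:173913047-173913296) and Cybb on the minus strand (chrX:9469325-9469574). A match is a description of the letters, and binding was not measured.
Isg15: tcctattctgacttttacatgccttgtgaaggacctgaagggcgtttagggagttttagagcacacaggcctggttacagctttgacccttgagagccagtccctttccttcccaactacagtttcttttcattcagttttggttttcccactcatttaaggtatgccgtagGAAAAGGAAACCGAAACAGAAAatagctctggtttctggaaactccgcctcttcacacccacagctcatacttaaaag
Ifit1: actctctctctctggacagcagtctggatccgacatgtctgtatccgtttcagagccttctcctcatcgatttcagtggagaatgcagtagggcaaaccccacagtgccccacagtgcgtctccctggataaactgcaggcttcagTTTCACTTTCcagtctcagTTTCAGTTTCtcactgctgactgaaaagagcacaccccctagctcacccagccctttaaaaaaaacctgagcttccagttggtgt
Ifi211: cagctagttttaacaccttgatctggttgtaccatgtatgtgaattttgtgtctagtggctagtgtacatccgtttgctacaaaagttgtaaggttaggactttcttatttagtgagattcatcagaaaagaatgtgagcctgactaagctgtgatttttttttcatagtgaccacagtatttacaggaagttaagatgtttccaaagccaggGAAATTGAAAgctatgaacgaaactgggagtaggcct
Cybb: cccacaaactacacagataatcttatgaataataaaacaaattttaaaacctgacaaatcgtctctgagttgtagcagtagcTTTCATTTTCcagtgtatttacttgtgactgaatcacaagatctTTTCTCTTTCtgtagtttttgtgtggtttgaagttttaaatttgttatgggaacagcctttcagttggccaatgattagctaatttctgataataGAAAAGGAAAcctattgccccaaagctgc

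Genes of MHC class I antigen presentation and the immunoproteasome rose together, 19 of 19 tested, with a median log2 fold change of 0.65 and no overlap between the groups in 15. H2-D1, a classical class I heavy chain, was at 1028, 990, 1007 and 797 normalised CPM in AppSAA mice and at 741, 608, 570 and 520 in WT mice (0.65 ± 0.051, adjusted p = 1.02e-08). B2m, the light chain, was at 2317, 2260, 2689 and 2343 against 1756, 1498, 1805 and 1719 (0.50, adjusted p = 1.25e-07). Every AppSAA mouse was above every WT mouse for both chains. Tap1, which carries peptides into the endoplasmic reticulum, and Nlrc5, the class I transactivator, rose by 0.72 and 1.23. Without the pool in the model 13 of the 19 were called. Of 10 MHC class II genes, 3 were called higher. They were H2-Ab1 (0.69, adjusted p = 0.0496), H2-Oa (0.35) and H2-DMa (0.14). H2-Ab1 lost its call in 9 alternatives, among them without pool 1, 2 or 4, without the filter on low counts and without the pool in the model, and H2-DMa in 7, among them DESeq2 and without pool 2 or 3. The invariant chain Cd74 was at 410, 296, 474 and 355 against 275, 248, 228 and 213, without overlap but with an adjusted p of 0.0982.

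Of 25 chemokine and cytokine genes tested, 14 were called higher and none lower (median 0.58), and 6 were called without the pool. Ccl12, a ligand of CCR2, was at 5759, 3314, 3919 and 3562 normalised CPM in AppSAA mice and at 2597, 1369, 1472 and 2105 in WT mice (1.15, adjusted p = 0.00388). The related Ccl2 was at 1049, 573, 631 and 640 against 417, 241, 286 and 396 (1.10, adjusted p = 0.0151). Both were highest in the pool 1 mouse of each genotype. Cxcl16, a scavenger receptor and chemokine, rose by 0.70 (adjusted p = 1.08e-10). Cxcl10, a typical interferon-induced chemokine, was at 4035, 2073, 2634 and 2863 against 1343, 1148, 1624 and 1575 without overlap and was not called (1.00, adjusted p = 0.0631). Il1rn, the natural antagonist of IL-1 receptors, rose from a low level (1.72, adjusted p = 5.6e-07), whereas Il1b was not called (0.56, adjusted p = 0.271).

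**Figure D3:**
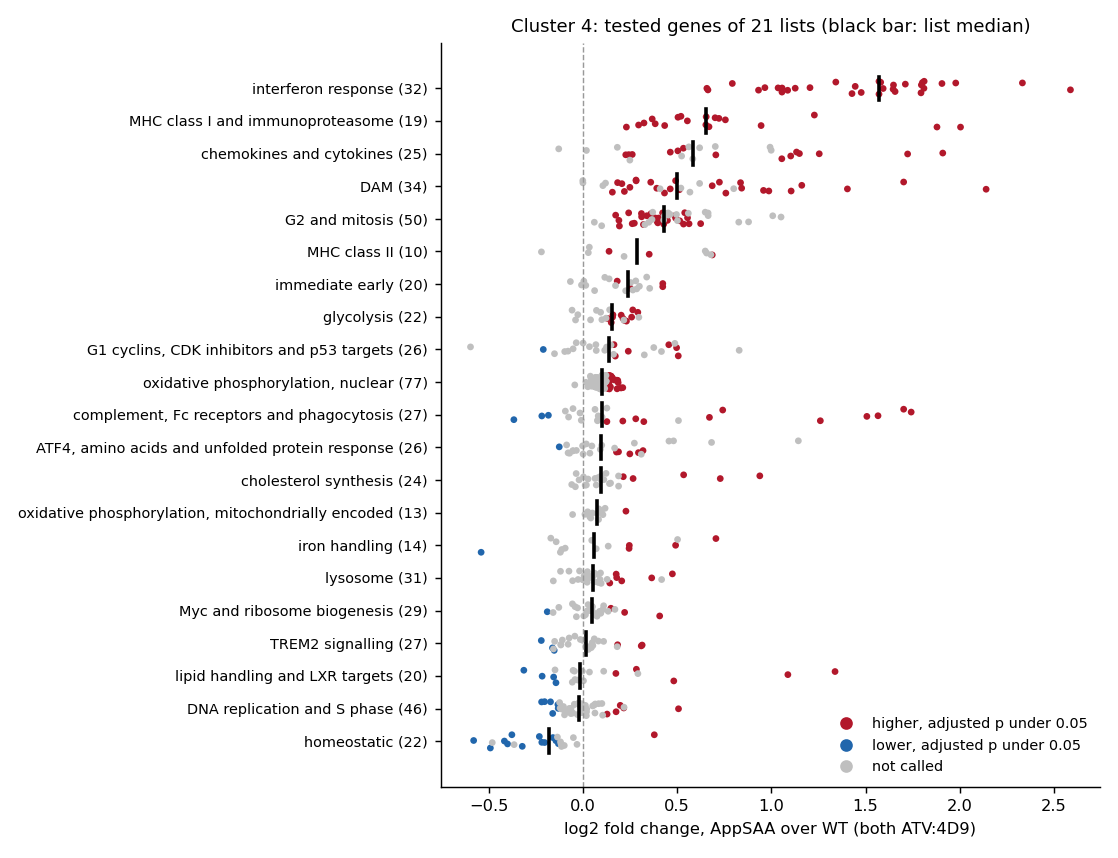
Log2 fold changes (AppSAA over WT, cluster 4 sums) of the tested genes of 21 lists, 1 point per gene and the number tested in brackets. Red and blue points were called higher and lower (adjusted p under 0.05) and grey points were not called, with a black bar at each list's median. The interferon list lies farthest to the right (median 1.57) and the homeostatic list farthest to the left (median -0.18).

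DAM genes rose as well, with 25 of 34 tested genes called higher, none lower, and a median of 0.50 (1 further listed gene did not pass the filter on low counts). No overlap between the groups was seen in 13. Cst7, an inhibitor of cathepsins, was at 367, 333, 380 and 337 normalised CPM in AppSAA mice and at 233, 181, 231 and 215 in WT mice (0.72 ± 0.044, adjusted p = 9.5e-11). Clec7a, the receptor dectin-1, was at 144, 97.7, 135 and 107 against 56.9, 43, 57.5 and 57.4 (1.16, adjusted p = 1.38e-06). Both genes were above the WT range in each AppSAA mouse. Axl, a receptor for apoptotic cells that is also interferon-inducible, was at 56.6, 51.5, 66.8 and 54.7 against 22.3, 12.3, 17.4 and 18.4 (1.70, adjusted p = 0.0045). Apoe, the lipid carrier, was at 761, 674, 1836 and 1148 against 440, 416, 961 and 751. Both mice of pool 3 were high for Apoe and the groups overlapped. It was called with the pool in the model (0.76, adjusted p = 3.42e-10) and not without it (adjusted p = 0.531). Apoe also lost its call with all groups in 1 fit, with equal cells per mouse and in the finer cluster 7 alone.

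Further DAM genes rose from low levels. Igf1, a growth factor, was at 4.18, 4.48, 12.5 and 5.95 against 1.54, 1.68, 4.02 and 2.66 (1.40, adjusted p = 6.37e-08), and Fabp5, a fatty acid binding protein, rose by 1.10 (adjusted p = 0.0564 without the pool). The mice of pool 3 were the highest of their genotype for Igf1. Trem2 itself was at 2271, 2340, 2155 and 2109 against 2471, 2248, 2080 and 2096 (adjusted p = 0.992). Spp1, at 26.1, 18, 56.3 and 29 against 10.8, 12.2, 44.6 and 14, was not called (0.80, adjusted p = 0.107). Without the pool in the model 7 of the 34 DAM genes were called. The members of this and the other lists that are described beyond the naming rule were chosen after their values were seen.

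Homeostatic genes were lower, with 12 of 22 called lower and 1 higher (median -0.18), and in 8 the groups did not overlap. Without the pool 4 were called. P2ry12, the ADP receptor that guides process extension, was at 527, 813, 679 and 767 normalised CPM in AppSAA mice and at 898, 1104, 985 and 899 in WT mice (-0.49 ± 0.081, adjusted p = 0.00599, and 0.0769 without the pool). P2ry13, a second ADP receptor, was at 196, 220, 228 and 242 against 257, 296, 307 and 292 (-0.38, adjusted p = 7.55e-07). In both receptors the AppSAA mice lay below the WT mice. Slc2a5, a fructose transporter, and Tmem119 fell by 0.58 and 0.16 on the log2 scale. The listed gene that rose was Gpr84, a receptor for medium-chain fatty acids (0.38, adjusted p = 3.47e-05, and 0.300 without the pool). In cycling cells of AppSAA mice Gpr84 was at 765 normalised CPM under ATV:4D9, 191 under ATV:ISO and 248 under 4D9. These levels, on a scale common to all arms, were not tested, and its place on the homeostatic list is uncertain. Csf1r, the receptor for the survival factor CSF1, was not called (log2 fold change -0.03, adjusted p = 0.682).

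The 12 largest falls, chosen with the same limits, were smaller than the rises. They were Myo18b (-0.69), Slc2a5, Gm10790 (-0.57), Tmem63b (-0.55), Slc40a1 (-0.54), Sox4 (-0.53), Bank1 (-0.53), Lifr (-0.52), P2ry12, Efnb1 (-0.48), Lyl1 (-0.48) and Etv1 (-0.48). Sox4, a transcription factor, was at 53.3, 59, 49 and 71.5 against 84, 85.2, 80.2 and 87.3 (adjusted p = 0.000162). Slc40a1, the iron exporter ferroportin, was at 31.7, 52.1, 40.9 and 50.8 against 49.3, 70.9, 69 and 66.6 (adjusted p = 1.09e-06). Both mice of pool 1 were low for Slc40a1, and the groups overlapped. Without the pool in the model 7 of the 12 lost their call, namely Gm10790, Tmem63b, Slc40a1 (adjusted p = 0.0976), Lifr, P2ry12, Efnb1 and Etv1. Efnb1 also lost it without pool 1 or 2.

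Genes of G2 and mitosis rose moderately in the sums, and genes of DNA replication were called in both directions. The sums mix the finer clusters. Finer cluster 7, with the higher G2 and mitosis level, held 32.8% of cycling cells in AppSAA mice and 22.6% in WT mice. The part of this share in the rise was not tested. Of 50 G2 and mitosis genes, 28 were called higher and none lower (median 0.43), and 38 were higher in AppSAA mice without overlap. There were 21 calls without the pool in the model, where 2.35% of all genes were called higher. Without cells over 25000 UMIs there were 20, where 744 of 12196 genes were called higher. Cdk1, the mitotic kinase, was at 192, 166, 171 and 175 normalised CPM in AppSAA mice and at 160, 125, 137 and 147 in WT mice (0.31 ± 0.041, adjusted p = 9.89e-06, and 0.113 without the pool). Ccna2, its S and G2 phase cyclin, was at 82.9, 79, 69.7 and 65.4 against 64.1, 46.3, 44.6 and 50.1 (0.53, adjusted p = 0.000286). Ccnb1, its mitotic cyclin, was at 30.6, 24.4, 33.8 and 27.5 against 23, 12.6, 11.8 and 17.3. The groups did not overlap, but the size of the difference varied between pools and Ccnb1 was not called (0.83, adjusted p = 0.112). Mki67 was not called either (0.37, adjusted p = 0.167), and Top2a was (0.39, adjusted p = 0.00755).

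In the list of 46 genes of DNA replication and S phase, 5 were called higher and 7 lower (median -0.02). Over all genes 10.4% were called higher and 7.09% lower. The count called higher is near that share and is no result about the list. Rrm2, a subunit of ribonucleotide reductase, was at 160, 139, 127 and 111 against 126, 89.1, 78.2 and 85.7 (0.51, adjusted p = 0.000111), while Ung and Dtl fell by 0.22 and 0.20 on the log2 scale. Among G1 cyclins, CDK inhibitors and p53 targets, 6 of 26 were called higher and 1 lower, beside the same shares over all genes. Without the pool 2 were higher, where 2.35% of all genes were. Cdkn1a, the inhibitor p21, was at 303, 271, 259 and 266 against 206, 163, 197 and 215 without overlap (0.50, adjusted p = 0.000616). Its call was lost with equal cells per mouse.

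The number of calls in the cell cycle lists varied with the cycling cells that were summed. In the finer cluster 4, 29 of 49 G2 and mitosis genes were called higher (median 0.27), beside 7.39% of all genes tested there (4.36% were lower). In the finer cluster 7, 3 of 50 were (median 0.12), beside 6.11% of all genes. Cdk1 had a log2 fold change of 0.21 (adjusted p = 0.00155) in the finer cluster 4 and 0.10 (adjusted p = 0.161) in the finer cluster 7. Cdkn1a was at 0.55 (adjusted p = 0.00826) and 0.08 (adjusted p = 0.588). Rrm2 was at 0.53 (adjusted p = 5.08e-12) and 0.10 (adjusted p = 0.284), Dtl at -0.05 (adjusted p = 0.511) and -0.35 (adjusted p = 0.0248), and Ung at -0.05 (adjusted p = 0.589) and -0.30 (adjusted p = 0.149). In the cycling cells as a whole, Rrm2, Dtl and Ung were not called without the pool in the model. Dtl also lost its call without cells over 25000 UMIs. S phase genes were called higher in 7 cases and lower in 0 in the finer cluster 4, and higher in 0 and lower in 12 in the finer cluster 7, where 3.12% of all genes were called lower. The interferon list was called in 31 of 32 genes (median 1.42) in the finer cluster 4 and in 32 of 32 (median 1.32) in the finer cluster 7, and Cst7 had log2 fold changes of 0.57 and 1.02. Whether the finer clusters differed in these effects was not tested. The finer clusters were also drawn from the expression of these same cells, so calls of cell cycle genes within them only describe the annotation.

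The CHR element, TTTGAA on both strands, was found in the promoter window of 32 of 43 G2 and mitosis genes in the RefSeq table (74.4%) and in 17.6% of S phase genes. It was in 20.2% of all genes in that table and in 14.5% of the 9672 tested genes found there. The 250 bases before the start of 2 G2 and mitosis genes that rose are printed, both with a match within 20 bases of the start. Capitals mark the CHR letters, on the gene's strand from 5′ to 3′. Cdk1 lies on the minus strand (chr10:69352913-69353162), and so does Cks1b (chr3:89418292-89418541), a small subunit of cyclin-dependent kinase complexes with a log2 fold change of 0.27 (adjusted p = 0.000202). Cks1b lost its call without the pool (adjusted p = 0.197) and in the finer cluster 7 alone (adjusted p = 0.115).
Cdk1: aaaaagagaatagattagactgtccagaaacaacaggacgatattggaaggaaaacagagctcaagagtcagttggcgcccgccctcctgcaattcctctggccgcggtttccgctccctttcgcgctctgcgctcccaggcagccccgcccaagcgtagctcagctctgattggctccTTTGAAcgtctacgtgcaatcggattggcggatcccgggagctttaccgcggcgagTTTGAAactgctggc
Cks1b: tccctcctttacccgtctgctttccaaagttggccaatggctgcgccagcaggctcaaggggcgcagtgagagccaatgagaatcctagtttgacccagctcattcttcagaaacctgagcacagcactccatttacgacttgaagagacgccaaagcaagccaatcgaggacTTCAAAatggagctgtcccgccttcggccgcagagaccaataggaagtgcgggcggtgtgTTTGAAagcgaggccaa

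Of 27 genes for complement, Fc receptors and phagocytosis, 11 were called higher and 3 lower (median 0.10), and without the pool 5 and 0 were. Over all genes the shares were 10.4% and 7.09%, and without the pool 2.35% and 0.252%. Cybb, the catalytic subunit of the phagocyte NADPH oxidase, was at 81.6, 45, 78.3 and 75.1 normalised CPM in AppSAA mice and at 24, 11.1, 22 and 27.3 in WT mice (1.74 ± 0.079, adjusted p = 5.28e-07). The scavenger receptor Cd36 was at 8.58, 4.74, 8.09 and 6.98 against 2.34, 1.72, 2.58 and 2.84 (1.57, adjusted p = 8.69e-09). Neither gene had any overlap between the groups. Complement C3 rose from about 1 normalised CPM (1.51, adjusted p = 4.46e-06), and C4b and the Fc receptor Fcgr4 rose by 1.26 and 0.74. C1qa, an abundant complement component, was not called (0.10, adjusted p = 0.195). The fallers were Gas6 (-0.37), the bridging ligand of the phagocytic receptor Mertk, Mertk (-0.22) and Elmo1 (-0.18).

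Of 27 genes of TREM2 signalling, 3 rose and 3 fell (median 0.01), shares near the 10.4% higher and 7.09% lower over all genes, so the count is no result about the pathway. Among the risers were the adaptors Pik3ap1 (0.31) and Tyrobp (0.18). The fallers were the PI3K subunit Pik3cg (-0.22), the inhibitory receptor Cd33 (-0.15) and the phosphatase Inpp5d (-0.16, adjusted p = 0.00773). Syk and Plcg2 were not called, with log2 fold changes of -0.11 and -0.08.

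Genes of lipid and iron handling were called in both directions. Of 20 lipid handling genes, 5 were called higher and 4 lower. Over all genes tested, 10.4% were called higher and 7.09% lower. These shares also stand beside the cholesterol and iron counts that follow. Fabp3, a fatty acid binding protein, was at 4.63, 3.95, 6.56 and 4.28 against 1.48, 1.46, 2.62 and 2.1 (1.34, adjusted p = 1.18e-06), and Plin2, the lipid droplet coat, rose by 0.48. The LXR targets Abca1 and Abcg1 were not called, and Mgll, a lipase for monoglycerides, fell by 0.32 on the log2 scale. Of 24 genes of cholesterol synthesis, 5 were called higher, among them Sqle, an enzyme of sterol synthesis (0.53, adjusted p = 0.000961). In the iron list 4 of 14 genes rose and 1 fell. Fth1, the ferritin heavy chain that stores iron, was at 10385, 8507, 8170 and 7374 against 7117, 5553, 6110 and 5649 (0.49, adjusted p = 7.5e-07), Hmox1, which frees iron from haem, rose by 0.71, and Slc40a1 was the faller. Without the pool 1 gene each of the lipid, cholesterol and iron lists was called, and Sqle (adjusted p = 0.0621), Plin2 (0.0654) and Fth1 (0.0531) were not. Of all genes in that fit, 2.35% were called higher and 0.252% lower. Sqle also lost its call with equal cells per mouse and in the finer cluster 7 alone, and Hmox1 with all groups in 1 fit (adjusted p = 0.355).

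Metabolic genes that were called differed by small amounts, and most listed genes of oxidative phosphorylation did not pass the test. Of 22 glycolysis genes, 11 were called higher (median 0.15), among them Ldha and the glucose transporter Slc2a1 (0.26 and 0.29). Of 77 nuclear genes of oxidative phosphorylation, 23 were called higher (median 0.10), and of 13 mitochondrially encoded ones 1 was (median 0.08), against the 10.4% of all genes called higher. Of 31 lysosomal genes 6 were called higher, of 29 genes of Myc and ribosome biogenesis 3 higher and 1 lower, of 26 ATF4 and unfolded protein response genes 5 higher and 1 lower, and of 20 immediate early genes 4 higher. Without the pool in the model, edgeR called 0 genes of the glycolysis list (1 at an unadjusted p under 0.05, and 9 by DESeq2 with the pool) and 0 of the nuclear oxidative phosphorylation list (0 at an unadjusted p under 0.05, and 13 by DESeq2 with the pool). The same fit also called 0 genes of the S phase, immediate early, lysosome, Myc and TREM2 signalling lists, where 5 of 46, 6 of 20, 3 of 31, 3 of 29 and 2 of 27 had an unadjusted p under 0.05, beside 11.5% of all genes in that fit, and DESeq2 with the pool called 6, 4, 6, 3 and 5, beside 8.99% of all genes that it called.

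The interferon difference was spread over the cells. After thinning every cell to 8000 UMIs (9621 cells kept, 170 of AppSAA and 317 of WT mice too shallow), the median cycling cell held 19.5 ± 3.42 UMIs of the interferon list in AppSAA mice and 7.25 ± 1.26 in WT mice (mean of 4 mice ± SD). The tenth percentile of cells was at 6 and 3.25 UMIs and the ninetieth at 64.75 and 25.2, and at all 3 points the mice of the groups did not overlap. For the DAM list the medians were 255.75 and 227.9 UMIs and for the homeostatic list 376 and 429.75, and for both lists the medians of the mice overlapped between the groups. S phase stood at 48.5 and 50.4, also with overlap. MHC class I and immunoproteasome stood at 45 and 33.75, and G2 and mitosis at 24.75 and 19.5, without overlap. These are descriptions of the lists, with no test.

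**Figure D4:**
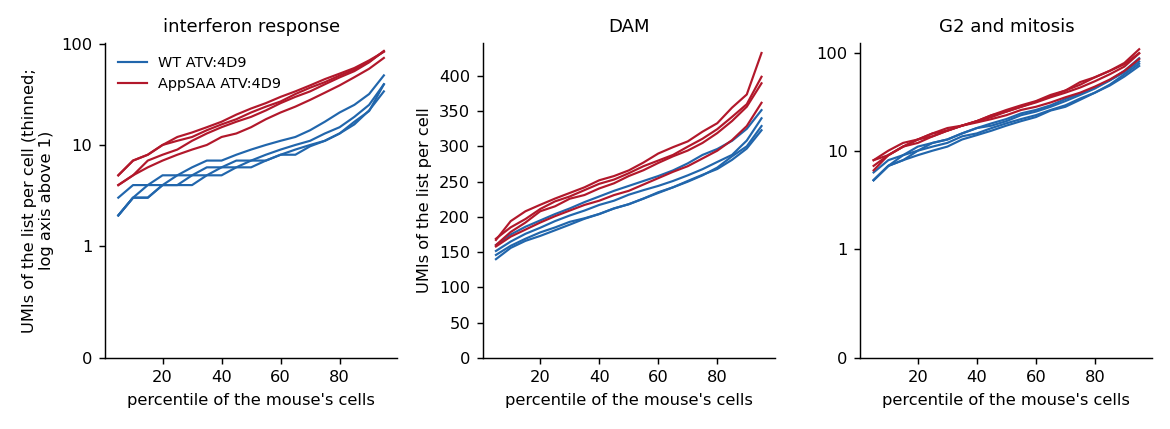
UMIs of the interferon, DAM and G2 and mitosis lists per cell (y axis, log above 1 in the left and right panels and linear in the middle one) at each percentile of a mouse's cycling cells (x axis), after thinning to 8000 UMIs per cell. Each line is 1 mouse (4 WT in blue, 4 AppSAA in red). The interferon curves of AppSAA mice lie above those of WT mice from the tenth percentile (6 against 3.25 UMIs, means) to the ninetieth (64.75 against 25.2).

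The same contrast was made in the 13526 cells of cluster 2 in these 8 mice, and the difference between the 2 contrasts was tested gene by gene. The 10 cycling markers summed to 501 to 596 CPM in cluster 2, beside 1957 to 2340 in cluster 4. In cluster 2, 8.27% of 12696 genes were called higher and 5.41% lower. The interferon list was called higher in 31 of 32 genes there (median 1.36), and G2 and mitosis genes in 9 of 48 (median 0.19). The genotype difference itself differed between the clusters in 35 of 13063 genes (0.268%), 31 of them with the larger value in cycling cells. Without mouse and pool in the model no gene passed (edgeR, 120 at an unadjusted p under 0.05), and leaving out 1 pool gave 16 (without pool 2), 17 (without pool 3) or up to 72 (without pool 1). With cluster 5 in place of cluster 2, 3034 genes passed. In the cluster 5 contrast itself, 4 of 32 interferon genes were called higher and 12 lower (median -0.07), beside 8.44% of 11092 genes higher and 8.53% lower. The paper describes its cluster 5 as raised in interferon-stimulated genes, and whether the deposited number means the same cluster was not checked. If so, its cells were grouped partly by the genes counted here. The contrast would then give no independent view of them.

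Among the 35 genes, Gbp5, an interferon-induced GTPase, had a log2 fold change of 1.15 in cycling cells and 0.37 in cluster 2 (difference 0.74 ± 0.12, adjusted p = 0.0108). Ifitm3, Zbp1 and Ifi207 also differed, by 0.29, 0.33 and 0.30. Cdc20 and Aurka, which drive mitosis, differed by 0.64 and 0.57, the histone gene Hist1h3e by 0.62 and the CDK inhibitor Cdkn2d by 0.50. In cluster 2 these genes were low, from 2.47 (Aurka) to 6.55 (Cdkn2d) normalised CPM, beside 12.1 to 45.6 in cycling cells. The share of finer cluster 7 within cluster 4 also differed between the genotypes (32.8% and 22.6%). Its part in these differences was not tested. NF-kB feedback genes were among them, with Nfkbia at 0.24 and Tnfaip3 at 0.24, as was Socs3 (0.28), an inhibitor of cytokine signalling. Tnfaip3 was not called between the genotypes in either cluster (edgeR, adjusted p = 0.231 in cycling cells and 0.556 in cluster 2). Nfkbia was called in cycling cells (adjusted p = 0.0342), but among other alternatives not with limma-voom or without pool 2 or 4. In the opposite direction were Fam20c (-0.29), Tifa (-0.21), R3hdm2 (-0.18) and Dnaja1 (-0.15). Of these, Tifa, R3hdm2 and Dnaja1 were not called between the genotypes in either cluster. The same held for Cdkn2d. No DAM, MHC or homeostatic gene differed between the contrasts at this threshold.

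**Figure D5:**
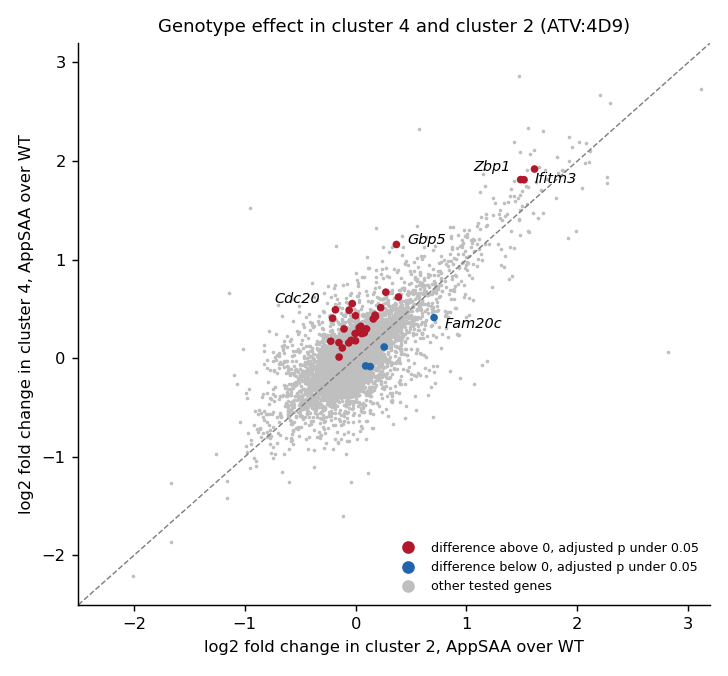
Log2 fold change (AppSAA over WT) of each gene in cluster 2 (x axis) and in the cycling cells of cluster 4 (y axis), for 12468 genes tested in both, 2 of which lie outside the axes. Red and blue points are genes whose 2 fold changes differed (adjusted p under 0.05), and the dashed line marks equal values. Of the 35 genes that differed, 31 have the larger value in cluster 4, among them Gbp5 (1.15 against 0.37).

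The few cycling cells of the other AppSAA arms give levels for orientation, without a test, because finer cluster 7 made up 84.3% of them under ATV:ISO and 82.9% under 4D9. On a scale common to all arms, the interferon list summed to 3995 ± 522 normalised CPM in AppSAA mice given ATV:4D9, 2435 ± 148 in AppSAA mice given ATV:ISO, 2016 ± 540 in AppSAA mice given 4D9 and 1583 ± 349 in WT mice given ATV:4D9 (SD, n = 4 each). The DAM list summed to 34690 ± 2758, 53221 ± 1860, 51179 ± 4877 and 28427 ± 2314 in the same order. Ifit2 was at 105, 25.1, 15.3 and 35.3 in this order and Cst7 at 350, 1595, 1627 and 212. Not every interferon gene had this order, and Ifi27l2a, the list's largest riser between the genotypes, was at 319 ± 63.2, 921 ± 211, 774 ± 348 and 53.04 ± 15.8, a large part of the sums of the ATV:ISO and 4D9 arms.

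Checks of the labels and of other cell types gave these values. App was called slightly higher (0.13, adjusted p = 0.0324), and its reads come from the 3′ end, outside the mutated part, so they check nothing about the genotype. Xist stood at 4.64 to 5.91 normalised CPM in both mice of pool 4, which also held the 1 mouse recorded as female, and at 0.47 or less in the other 6 mice. The Y-linked Kdm5d (-0.41) and Ddx3y (-0.21) were called lower. Of 6 border macrophage markers, Lyve1 and Cbr2 were called higher, and the 6 summed to 15.02 to 61.5 normalised CPM in AppSAA mice and 8.91 to 30.5 in WT mice, both highest in the pool 3 mice. The 4 neuronal markers summed to less than 1 normalised CPM in every mouse, and neutrophil markers to 4.22 to 13.7 against 7.82 to 29.4. Of the endothelial markers, Flt1 was called higher (1.42, adjusted p = 2.61e-06, no overlap) and Pecam1 lower (-0.37, adjusted p = 0.00569), and the 4 summed to 8.76 to 14.4 against 9.41 to 13.02. The oligodendrocyte marker Mbp was called higher (0.28, adjusted p = 0.00876), and its list of 4 summed to 16.1 to 35.7 against 14.2 to 26.7. The part of these other cell types in the results was not tested.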

How the data were processed

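According to the methods, the authors aligned reads from sorted microglia of 20 mice (5 groups, 4 CellPlex-tagged pools) to mm10 with Cell Ranger 6.1.1 and clustered the cells with Seurat. The deposited matrix holds UMI counts per cell without normalization, and the deposited annotation gives mouse, group, pool, cluster and the mitochondrial percent that the authors computed for each cell. Filters on cells and any doublet removal are not given in the sources used here, and no doublet caller was run. Of 10104 barcodes, 4 occurred in more than 1 pool. The members and gene lists were chosen with earlier results of these data known.

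Counts were summed per mouse, filtered by filterByExpr and normalised by TMM. The test was the quasi-likelihood test of edgeR 4.0.16 (R 4.3.3, Benjamini-Hochberg adjustment) with the pool as a term. Pools were treated as pairs because the comparison was defined that way beforehand. Mice of 1 pool deviated from their group means together (correlations 0.408 to 0.65). Between mice of different pools the correlations ran from -0.579 to 0.351. The difference between clusters used mouse as a block. Alternatives were tried with limma 3.58.1 and DESeq2 1.42.0. Genes were named as the 12 largest called rises and falls (mean CPM of at least 10, same direction in 4 of 4 pools) and up to 4 genes per list by smallest p. Scripts were tested on simulated data. Columns of per-sample values left unused numbered 0. The arm labelled ATV-DNP02 was taken for ATV:ISO without a text that says so. Texts differ on whether CD45 was part of the sort and hippocampus part of the tissue. A few members of the lists are not reported here by name.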

Additional observations from a re-analysis of the deposited data

Results flagged for a closer look

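In 13 of 218 groups of 4 mice examined, 1 mouse lay apart, by the ratio of its gap to the nearest other mouse to the group's whole range (normalised CPM, Dixon's test at 95%). Chance flags about 1 in 20 such groups. Among AppSAA mice the pool 1 mouse was high for Ass1 (gap 0.836 of the range), Cks1b (0.881), Ldha (0.908) and Npm1 (0.908), and the pool 3 mouse was high for C3 (0.831) and Grn (0.858) and low for Sqle (0.921). The pool 4 mouse was low for H2-D1 (0.837) and the pool 2 mouse for Odc1 (0.899). Among WT mice the pool 1 mouse was high for Ccnd3 (0.943) and Tap1 (0.943), and the pool 2 mouse was low for Gpr84 (0.8293) and Shmt2 (0.936).

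The genotype difference in cycling cells minus that in cluster 2 was tested as an interaction in edgeR, and these genes passed with the largest differences of log2 fold change. Above 0 were Gbp5 (0.74), Cdc20 (0.64), Hist1h3e (0.62), Aurka (0.57) and Cdkn2d (0.50). Below 0 were Dnaja1 (-0.15), R3hdm2 (-0.18), Tifa (-0.21) and Fam20c (-0.29).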

How the results depend on the processing

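The number of genes called between AppSAA and WT cycling cells was 2215 (1316 higher, 59.4%). It was 330 with the replicate block left out, that is without the pairing by pool (298 higher, 90.3%, 307 of them shared with the 2215), 1140 with DESeq2 (855 higher, 75.0%), 1099 with all groups in 1 fit, 1437 with equal cells per mouse, 1149 without cells over 25000 UMIs, 1440 in the finer cluster 4 alone and 1033 in the finer cluster 7 alone, and 1296 to 1815 with 1 pool left out (1296 without pool 2, 1405 without pool 3). The count for the difference from cluster 2 was 35. It was 0 without the pairing, 66 without the filter on low counts, 3034 against cluster 5, 2086 against all cells outside cluster 4, and 16 to 72 with 1 pool left out. The share of cycling cells differed by -17.6 percentage points and that of finer cluster 7 within the cycling cells by 10.2. Paired by pool, p was 0.125 for both, and with 1 pool left out the differences ranged from -19.7 to -14.4 and from 8.42 to 12.3 (p = 0.1, the smallest possible in an exact permutation test of 3 against 3).

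For the named genes, 1341 values under an alternative kept direction and side of the threshold, 267 kept direction and missed the threshold, 72 of these without the pairing, and 3 reversed. Tk1 had a log2 fold change of -0.00397 in the finer cluster 7 alone, and against cluster 5 the differences for Dnaja1 and Fam20c were 0.22 and 0.28. The causes were not tested. Genes near 1 normalised CPM rest on few UMIs in the AppSAA mouse of pool 3, which had 445 cells.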
